A study of Oryza sativa Japonica Group with 29 samples.

Results

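The comparison described here is the interaction of genotype with drought in rice roots, that is, the drought response of plants over-expressing OsNMCP1 (OE) minus the drought response of wild type plants (WT), locus by locus. A locus entered it when its TPM (the deposited transcript abundance, scaled by length and by library) reached at least 1 in 2 or more libraries, which took 23699 of the 55986 loci listed. All values are from RNA sequencing of roots of 25-day-old seedlings of Oryza sativa Japonica Group in hydroponic culture. The WT plants were ZH11, and the OE plants carried OsNMCP1 over-expression. Roots were taken under normal watering or after 3 h of water deprivation, giving 11 libraries, 3 each of WT normal, WT drought and OE drought and 2 of OE normal. The promoter of the transgene and the number of transgenic lines could not be read from the labels. Near the filter, 553 loci passed with exactly 2 libraries (median highest TPM 1.57), and 688 loci stayed out with exactly 1 library (median 1.2).

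OsNMCP1 belongs to a plant family of lamin-like proteins at the nuclear periphery, and SWI3C is a core subunit of SWI/SNF chromatin remodelling complexes. When roots lose water, abscisic acid (ABA) accumulates, its receptors inhibit the clade A protein phosphatases 2C, and the SnRK2 kinases thereby released activate transcription of protective genes such as those of dehydrins and late embryogenesis abundant (LEA) proteins. DREB factors form a branch of the response that can act without ABA, and uptake of water and minerals, cell wall synthesis and growth usually decline.

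The libraries differed in tightness between conditions. On the log2(TPM + 1) scale the within-group SD of a locus had a median of 0.074 in WT normal, 0.075 in OE normal, 0.27 in WT drought and 0.253 in OE drought. Implied depth, from the ratio of coverage to FPKM, was 5.79 to 11.95 gigabases. WT drought replicate 3 correlated across loci at 0.9274 and 0.9439 with its own group and at 0.9211 to 0.929 with the OE drought libraries, so counts of list members are also given without it where they move by over 1.5 times or where a direction with 0 calls gains one. For the 6 drought libraries the labels name genomic DNA as the molecule although the titles name RNA sequencing. Any handling that differed between normal and drought libraries cannot be told apart from drought, while the interaction compares genotypes within each condition. Markers of the root were present in every library, and their summed TPM (LSI1, LSI2 and AMT1-3) was 2246 to 2309 in WT normal, 556.2 to 751.8 in WT drought, 1866 to 2033 in OE normal and 94.58 to 260.7 in OE drought. The summed TPM of 5 photosynthesis genes, markers of shoot tissue, was 728.7 to 1033 in WT normal, 357.7 to 585.6 in WT drought, 331.3 to 334.5 in OE normal and 65.98 to 266 in OE drought. In bulk tissue, fewer cells of a type and less RNA per cell cannot be told apart. The part of these marker shifts in the results below was not tested.

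The targeted gene itself showed an interaction. OsNMCP1 (LOC_Os01g56140, chromosome 1, 32327698 to 32332777) lies on a genome build the sources used here do not name. It stood at 35.5, 37.6 and 36.3 TPM in WT normal, 37.4, 28.1 and 46.4 in WT drought, 184 and 167 in OE normal and 452, 424 and 347 in OE drought. Every OE library was above every WT library, and the OE drought libraries were above the OE normal ones. The response was 0.00 in WT and 1.203 in OE, a difference of 1.19996 (log2 units, SE 0.26, limma adjusted p = 0.0147), and the call was lost when either OE normal library was left out. NMCP1A, another gene of the family, had an interaction of -0.10 (limma adjusted p = 0.796), and SWI3C1 had one of -0.40 (limma adjusted p = 0.0913). Neither passed the threshold.

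Across the genome, 3778 of 23699 loci (15.9%) were called for the interaction at an adjusted p under 0.05 (limma, Benjamini-Hochberg over all loci), and 2701 of them differed at least 2-fold. The OE response was higher in 1091 loci (4.6%) and lower in 2687 (11.3%). The median interaction of all loci was -0.226 on the log2(TPM + 1) scale, so a lower response in OE was partly a shift of the whole distribution. When libraries were rescaled by median ratios the median was -0.017, and the split became 1453 higher (6.13%) and 1241 lower (5.24%), with 53.9% of calls higher against 28.9% in the deposited TPM. Of the 3778 loci, 2306 were called under both scalings, 1066 of the higher and 1240 of the lower ones. The count also depended on single libraries. It was 7442 without WT drought replicate 3 (2565 higher and 4877 lower) and 6045 without OE drought replicate 3. It was 1175 and 1155 without OE normal replicates 1 and 2, and 1883, 2098 and 1908 without WT normal replicates 1, 2 and 3. A total of 978 loci were called in all 11 fits that left out 1 library, 385 higher and 593 lower in OE, and 966 of these were also called under median-ratio scaling. Below, a gene kept its call in all 11 such fits and under median-ratio scaling unless the text says otherwise.

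The calls were sorted by whether the WT and the OE response each passed the threshold in the same fit. Reversed loci, which changed in opposite directions, numbered 276 (1.16% of loci tested), with 88 falling in WT and rising in OE and 188 rising in WT and falling in OE. Gained responses, called in OE and not in WT, numbered 1323 (5.58%), 492 of them rises and 831 falls. Lost responses, called in WT and not in OE, numbered 590 (2.49%), 416 of them rises and 174 falls. In 1219 loci (5.14%) both responses had the same sign and the OE response was larger, 269 rises and 950 falls, and in 364 (1.54%) it was smaller, 299 rises and 65 falls. A further 6 loci (0.0253%) had neither response called. Gained and lost describe the side of a threshold, and the test of the difference is the interaction itself. Across all loci the WT and OE responses had the same sign in 84.8% and correlated at 0.81 (Pearson, over 23699 loci, which are not independent replicates, with no library shared between the responses). The median absolute response was 0.716 in WT and 0.943 in OE. Of the 3778 calls, 1644 fell in the same class under median-ratio scaling. Among reversed loci, 39 of the 88 that rose in OE and 42 of the 188 that fell in OE kept their class. Among lost responses, 94 of 416 rises and 70 of 174 falls did so. Without WT drought replicate 3, of the called genes named below, CESA5, CESA6, DREB1E and HSFC2A counted as reversed and CAD2, IAA16, IAA9 and SUT1 as gained.

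**Figure D1:**
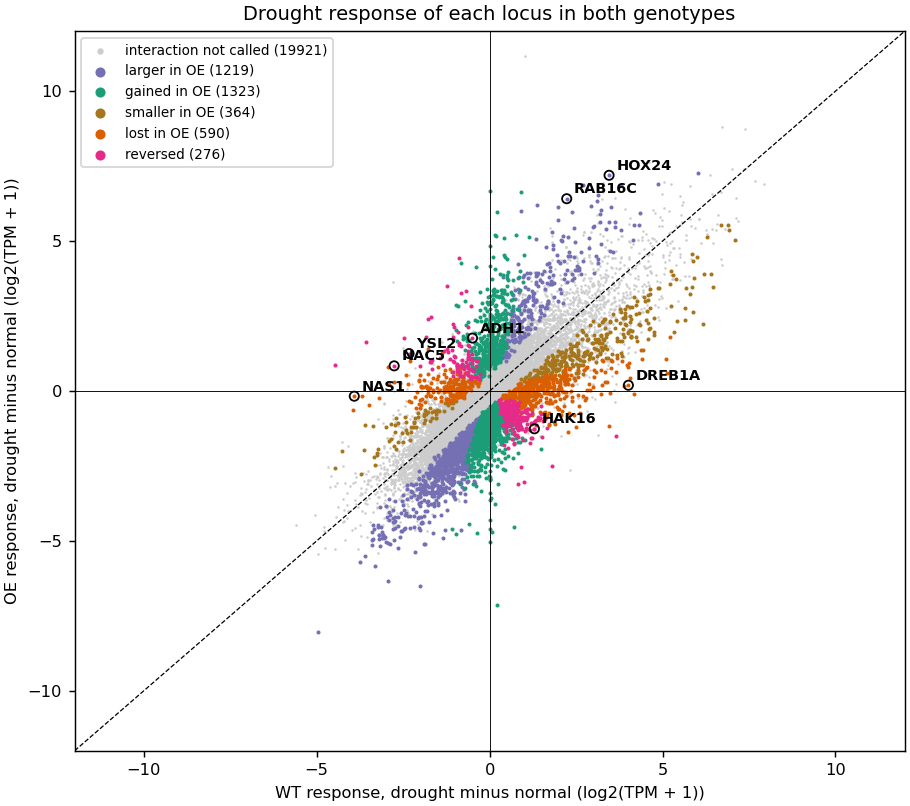
Drought response of each of 23699 loci in WT (horizontal axis) and OE (vertical axis), both as drought minus normal means of log2(TPM + 1). Colours give the response classes of the 3778 loci called for the interaction, grey points were not called, circles mark 8 genes named in the text, and the dashed line is an equal response in both genotypes. Most loci lie along the dashed line, and the larger falls in OE (950 loci) form the densest coloured group, at the lower left.

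An interaction can arise from a genotype difference after drought, in normal conditions or in both. In 606 of the 3778 called loci the OE minus WT difference was larger in normal conditions than after drought. The share depended on the class. It was 3.46% for gained rises, 4.09% for larger rises, 7.68% for larger falls, 11.9% for gained falls, and 10.2% and 14.4% for reversed loci. It was 23.0% and 28.4% for lost falls and lost rises, and 61.5% and 57.5% for smaller falls and smaller rises. In most gained, larger and reversed loci the difference was thus larger after drought, and in most of the smaller responses it was larger in normal conditions. The normal difference itself passed the threshold in 81 of the 299 smaller rises and 23 of the 65 smaller falls. That test used a spread shared by all groups, and drought libraries varied more than normal ones, so these counts may be too low. The WT and OE drought libraries did not overlap in 3311 of the called loci (87.6%), against 40.0% of all loci tested.

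**Figure D2:**
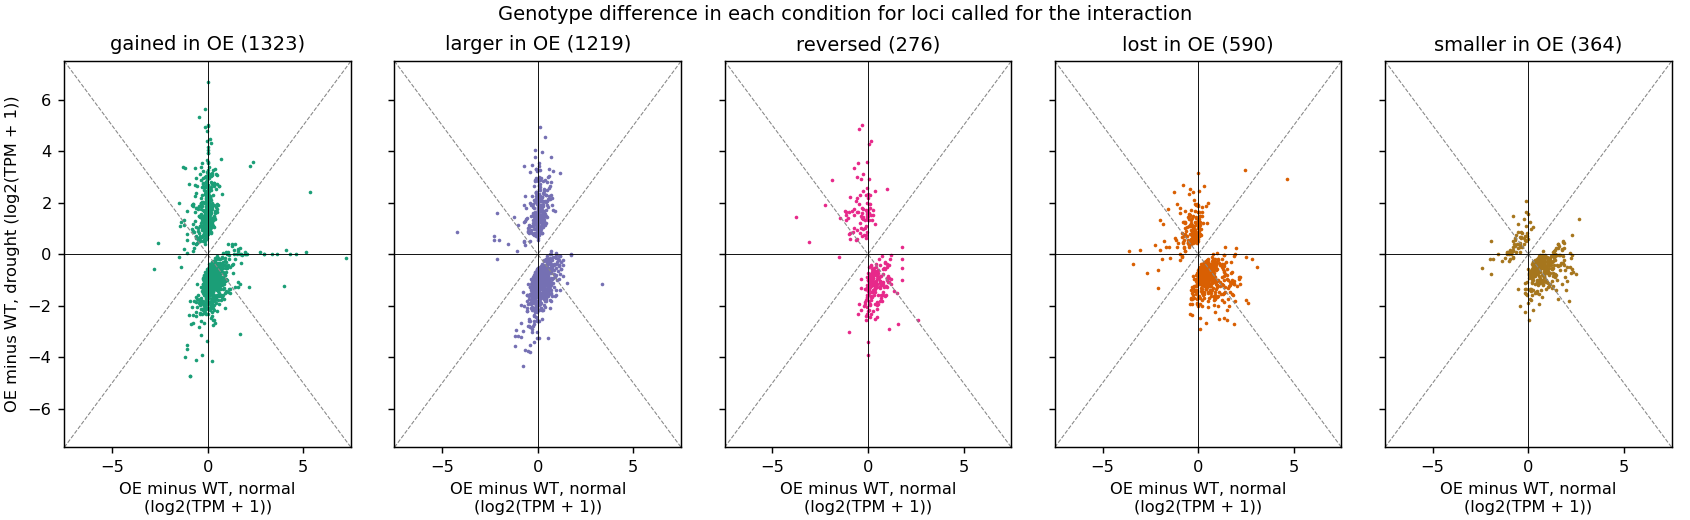
OE minus WT difference in normal conditions (horizontal axis) and after drought (vertical axis), in log2(TPM + 1), for the called loci of each response class, with the number of loci in each title. Dashed diagonals mark differences of equal size, and points nearer the vertical axis than the diagonals differ more after drought than before it. Gained and larger responses lie along the vertical axis, while 57.5% of smaller rises and 61.5% of smaller falls lie on the horizontal side of the diagonals.

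Among reversed genes with an accepted name, NAC5, ADH1, ADH2 and YSL2 fell in WT and rose in OE. NAC5 (LOC_Os11g08210, chromosome 11, 4299149 to 4301783) encodes a NAC transcription factor. It stood at 293, 309 and 299 TPM in WT normal and 43.8, 34.4 and 54.3 in WT drought, against 202 and 199 in OE normal and 399.7, 343 and 336 in OE drought. The 3 WT drought libraries were far below all other libraries, and the OE drought libraries were the highest. The responses were -2.76 in WT and 0.84 in OE, an interaction of 3.60 (SE 0.23, limma adjusted p = 3.06e-05). The alcohol dehydrogenase genes ADH1 and ADH2, which act in ethanol fermentation, lie next to each other on chromosome 11, and how the authors split reads between such related copies is not known. ADH1 (LOC_Os11g10480) stood at 121, 112 and 119.9 TPM in WT normal, 76.3, 87.1 and 86.4 in WT drought, 69.2 and 70.8 in OE normal and 199, 303 and 229.9 in OE drought. ADH2 (LOC_Os11g10510) stood at 453, 387 and 437 TPM in WT normal, 184, 197 and 240.5 in WT drought, 379 and 472 in OE normal and 919, 699 and 1340 in OE drought. In both, every OE drought library was above all others and every WT drought library was below the WT normal ones. The interaction was 2.26 for ADH1 (SE 0.22, limma adjusted p = 0.000335) and 2.21 for ADH2 (SE 0.33, limma adjusted p = 0.00313). Under median-ratio scaling the fall of ADH1 in WT was no longer called, and its class became a gained rise.

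YSL2 (LOC_Os02g43370), a transporter of metal-nicotianamine complexes, reversed in another way. It stood at 15.6, 10.5 and 14.4 TPM in WT normal and 2.91, 1.28 and 1.61 in WT drought, 0.751 and 0.629 in OE normal and 3.98, 4.50 and 1.36 in OE drought. The drought libraries of both genotypes overlapped, and the genotypes stood apart in normal conditions, with an OE minus WT difference of -3.09 there and of 0.49 after drought. The responses were -2.33 and 1.25, an interaction of 3.58 (SE 0.48, limma adjusted p = 0.0019). The largest reversals of this direction, among loci of at least 5 TPM, were in loci without an accepted name. LOC_Os07g30960 went from 7.25, 6.01 and 8.35 to 3.17, 5.35 and 2.33 TPM in WT and from 5.44 and 5.81 to 119.5, 171 and 146 TPM in OE, an interaction of 5.32 (limma adjusted p = 3.37e-05), and it became a gained rise under median-ratio scaling. LOC_Os07g41340 went from 57.6, 34.2 and 58.7 to 1.59, 1.66 and 0.624 TPM in WT and from 33.5 and 35.5 to 93.4, 43.4 and 63.9 TPM in OE, an interaction of 5.34 (limma adjusted p = 0.000173).

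In the opposite direction, HAK16, RR9, TIP2-1, CAD2 and IAA16 rose in WT and fell in OE. HAK16 (LOC_Os03g37840), of the HAK family of potassium transporters, stood at 5.50, 5.98 and 5.62 TPM in WT normal, 23.4, 16.5 and 9.37 in WT drought, 12.5 and 11.6 in OE normal and 3.96, 3.89 and 5.62 in OE drought. All WT drought libraries were above the WT normal ones and all OE drought libraries below the OE normal ones, with responses of 1.295 and -1.26 and an interaction of -2.56 (SE 0.40, limma adjusted p = 0.00403). RR9 (LOC_Os11g04720), a type-A response regulator induced by cytokinin, has a near-identical copy (RR10) on another chromosome and is uncertain between them. It stood at 35.4, 39.9 and 33.5 TPM in WT normal, 48.5, 69.0 and 61.6 in WT drought, 30.9 and 34.6 in OE normal and 10.5, 17.04 and 17.6 in OE drought, an interaction of -1.80 (SE 0.30, limma adjusted p = 0.005). Every WT drought library was above and every OE drought library below all normal libraries. TIP2-1 (LOC_Os02g44080), a water channel of the vacuolar membrane, stood at 540.3, 476 and 525 TPM in WT normal, 963, 1149 and 668 in WT drought, 488 and 498 in OE normal and 199.7, 334 and 314 in OE drought. Its drought groups did not overlap, and its interaction of -1.65 (SE 0.35, limma adjusted p = 0.0129) was not called when either OE normal library was left out. Under median-ratio scaling the falls of HAK16, RR9 and TIP2-1 in OE were no longer called, so these 3 genes became lost rises.

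CAD2 (LOC_Os02g09490), a cinnamyl alcohol dehydrogenase of the last step of lignin monomer synthesis, had the smallest SE of these genes. It stood at 380.1, 373 and 392 TPM in WT normal, 449, 459 and 553 in WT drought, 487 and 549 in OE normal and 231, 249 and 219.5 in OE drought. The OE drought libraries were below all others, and the WT drought libraries were all above WT normal. Its interaction was -1.49 (SE 0.18, limma adjusted p = 0.000965), and without WT drought replicate 3 its WT rise was not called. IAA16, an auxin response repressor, had responses of 0.71 and -0.76 and an interaction of -1.47 (limma adjusted p = 0.032). That call was absent under median-ratio scaling and without any of the 5 normal libraries, WT drought replicate 1 or OE drought replicate 2. Of the loci without a name, LOC_Os09g23300 went from 9.87, 10.9 and 9.25 to 239.7, 124 and 86.9 TPM in WT and from 68.5 and 62.9 to 20.2, 25.99 and 21.8 TPM in OE, an interaction of -5.16 (limma adjusted p = 0.000167). LOC_Os10g36360 had an interaction of -4.30 (limma adjusted p = 0.0232), with 47.3, 40.3 and 3.89 TPM in the WT drought libraries, of which replicate 3 was at the level of the WT normal libraries (5.20, 5.99 and 4.25 TPM). That call was lost without WT normal replicate 1 or 3 or either OE normal library.

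**Figure D3:**
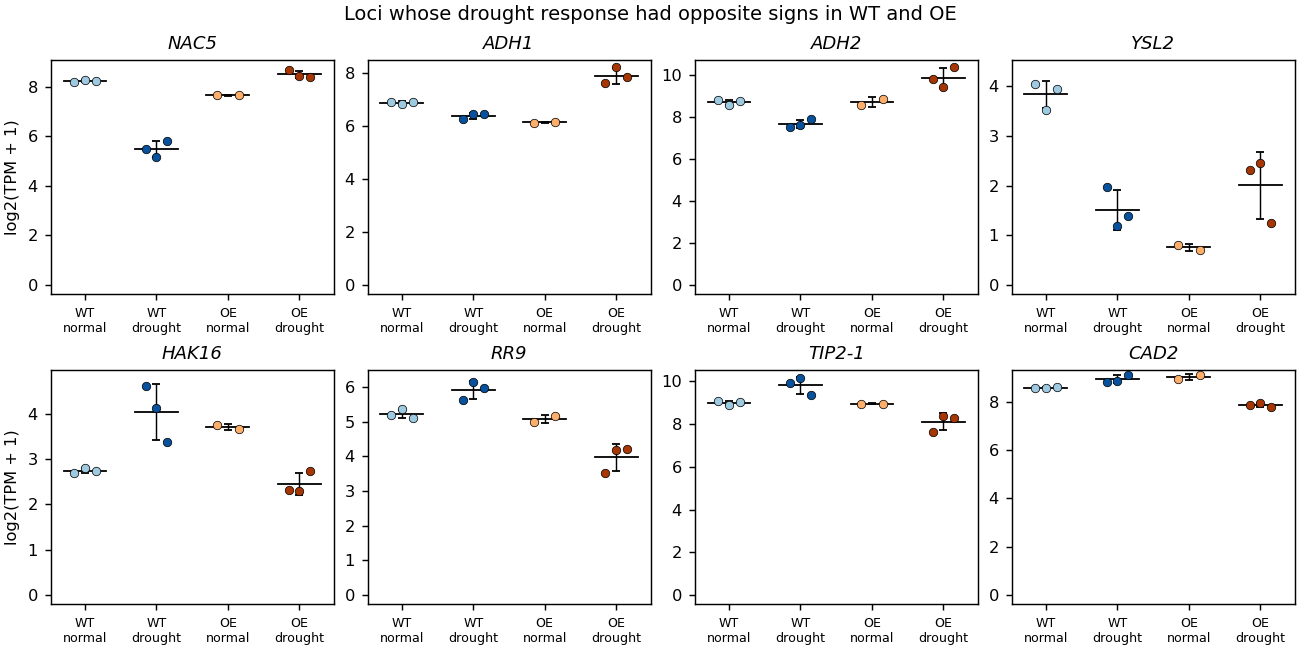
Log2(TPM + 1) of 8 genes whose drought responses had opposite signs in WT and OE. Points are libraries (3 WT normal, 3 WT drought, 2 OE normal, 3 OE drought), horizontal lines are group means and bars are the SD. NAC5, ADH1 and ADH2 are lower in WT drought than in WT normal and highest in OE drought, YSL2 differs mainly in normal conditions, and HAK16, RR9, TIP2-1 and CAD2 have their lowest mean in OE drought.

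Several genes of ABA signalling and of its protective targets rose further in OE. Of 9 clade A protein phosphatases 2C, the repressors of the SnRK2 kinases, 6 had a higher response in OE, 0 a lower one and 3 did not pass, with a list median of 1.34 (1.68 without PP2C51, which passed the filter through 1 group alone and was not called) against -0.226 for all loci, of which 4.6% were called higher. The same counts held under median-ratio scaling and without WT drought replicate 3. PP2C30 (LOC_Os03g16170) stood at 1.62, 1.76 and 1.25 TPM in WT normal, 22.4, 27.8 and 17 in WT drought, 2.96 and 3.89 in OE normal and 223, 252 and 184 in OE drought. PP2C68 (LOC_Os09g15670) stood at 9.05, 9.30 and 10.1 TPM in WT normal, 32.4, 29.5 and 51.3 in WT drought, 22.5 and 21.8 in OE normal and 397, 354 and 271 in OE drought. Both rose in WT and rose further in OE, with drought groups that did not overlap, and both were also higher in every OE normal library than in every WT normal one. The interaction was 2.45 for PP2C30 (SE 0.29, limma adjusted p = 0.000914) and 2.02 for PP2C68 (SE 0.31, limma adjusted p = 0.00346). PP2C49 had an interaction of 2.49 and PP2C06 one of 1.24. PP2C50 was a gained rise, with 23.1, 20.5 and 21.6 TPM in WT normal, 21.4, 20.4 and 29.1 in WT drought, 19.6 and 19.8 in OE normal and 60.3, 52.4 and 53.5 in OE drought, an interaction of 1.34 (limma adjusted p = 0.00412).

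Of 8 LEA and dehydrin genes tested, EMP1 and LEA17 passed the filter on TPM only through the OE drought group and so had to differ. Of the other 6, RAB16B and RAB16C (2 genes) had a higher response in OE, 0 a lower one and 4 did not pass, where 4.6% of all loci were called higher. The calls of RAB16B and RAB16C were not kept in all 11 fits that left out 1 library. RAB16C (LOC_Os11g26760), a dehydrin of a tandem cluster whose copies may share reads, stood at 0.321, 0.386 and 0.272 TPM in WT normal, 1.87, 19.99 and 2.99 in WT drought, 1.07 and 0.418 in OE normal and 169, 155 and 117 in OE drought. WT drought replicate 2 stood well above the other 2 WT drought libraries and below every OE drought library. The interaction was 4.18 (SE 0.89, limma adjusted p = 0.0136), and the call was lost when either OE normal library was left out. EMP1 (LOC_Os05g28210), an LEA protein of the Em type, was near 0 in WT drought at 0.146, 0.244 and 0.450 TPM and stood at 7.37, 6.86 and 8.05 TPM in OE drought, an interaction of 2.94. LEA17 (LOC_Os03g20680) likewise stood at 0.179, 0.250 and 0.0462 TPM in WT drought and 4.98, 5.72 and 4.62 TPM in OE drought, with an interaction of 2.404. The levels of both were low, and no p-value is given for them because the filter set their differences.

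Of 5 genes of ABA synthesis and breakdown, 2 were higher in OE, 0 lower and 3 did not pass, where 4.6% of all loci were called higher. Without WT drought replicate 3 there were 3 higher and 1 lower. NCED3 (LOC_Os03g44380), a 9-cis-epoxycarotenoid dioxygenase of the committed step of ABA synthesis, stood at 0.997, 0.956 and 0.931 TPM in WT normal, 10.8, 11.7 and 11.5 in WT drought, 1.80 and 2.17 in OE normal and 88.5, 75.4 and 57.8 in OE drought. Every OE drought library was above every WT drought library, and the interaction was 1.98 (SE 0.24, limma adjusted p = 0.00107). ABA8OX2, an ABA 8'-hydroxylase that inactivates the hormone, stood at 3.06, 4.34 and 6.39 TPM in WT drought and 12.9, 24.06 and 17.2 TPM in OE drought, with an interaction of 1.82 (limma adjusted p = 0.0137) that was lost without either OE normal library. Its relative ABA8OX1 did not pass, at -2.58 (limma adjusted p = 0.0862), and its WT drought libraries ranged widely, at 302, 142 and 31.0 TPM, against 24.11, 19.2 and 24.6 TPM in OE drought. Without WT drought replicate 3 it was called, at -3.48 (limma adjusted p = 0.000269), and counted as reversed. Of 10 SnRK2 kinases, 1 was higher in OE, 0 lower and 9 did not pass, where 4.6% of all loci were called higher. That gene was SAPK1 (LOC_Os03g27280), at 27.1, 24.2 and 23.1 TPM in WT normal, 33.6, 33.0 and 58.5 in WT drought, 25.2 and 23.4 in OE normal and 138, 202 and 144 in OE drought, an interaction of 1.98 (SE 0.34, limma adjusted p = 0.0053). Without WT drought replicate 3, 5 SnRK2 kinases were higher and 1 was lower. Of 6 HD-Zip I genes, 1 was higher in OE, 1 lower and 4 did not pass, where 4.6% and 11.3% of all loci were called higher and lower. Without WT drought replicate 3, 2 HD-Zip I genes were higher and 1 was lower. HOX24 (LOC_Os02g43330), an HD-Zip I transcription factor, went from 0.0767, 0.153 and 0.124 to 11.8, 7.45 and 16.04 TPM in WT and from 0.345 and 0.249 to 290.0, 210.3 and 110.5 TPM in OE, and its interaction of 3.74 (SE 0.51, limma adjusted p = 0.0019) was the largest among the named larger rises after RAB16C.

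**Figure D4:**
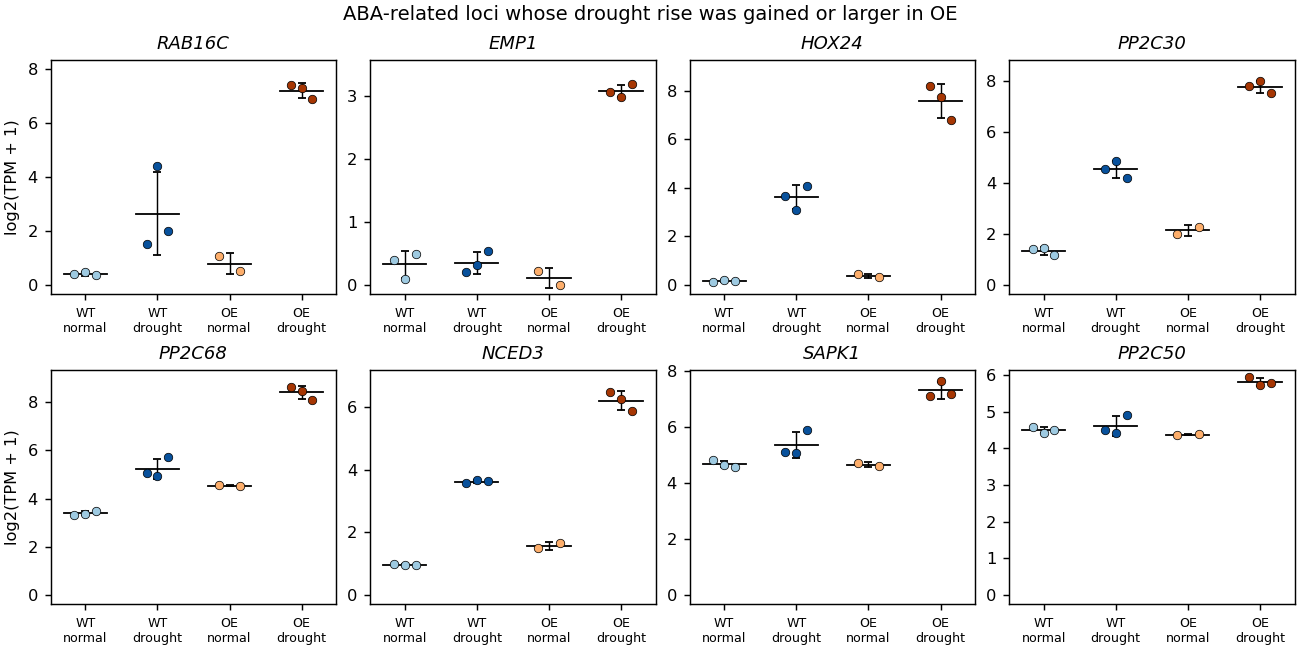
Log2(TPM + 1) of 8 ABA-related genes whose drought rise was gained or larger in OE. Points are libraries, horizontal lines are group means and bars are the SD. The OE drought libraries are above all other libraries in each panel, while EMP1 and PP2C50 show little or no rise in WT. EMP1 passed the filter on TPM only through the OE drought group, so its difference was set by the filter.

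Other gained or larger rises included stress regulators and metabolic genes. Of 20 heat shock factors, 5 were higher in OE, 0 lower and 15 did not pass, where 4.6% of all loci were called higher. By response class, 2 of the 5 were gained, 1 was larger and 2 were lost responses. Without WT drought replicate 3 there were 6 higher and 1 lower. Of the 5, 3 were of class C, and 0 were called in all 11 fits that left out 1 library. HSFC2A (LOC_Os02g13800) stood at 8.55, 8.68 and 8.02 TPM in WT normal, 3.201, 4.75 and 19 in WT drought, 4.55 and 5.90 in OE normal and 59.3, 79.5 and 45.2 in OE drought, an interaction of 3.56 (SE 0.71, limma adjusted p = 0.0106) that was lost without OE normal replicate 1. WT drought replicate 3 was the highest WT library of this gene and still below every OE drought library. HSFC1A had an interaction of 2.81, lost without OE normal replicate 2, and HSFC2B one of 2.45, lost without either OE normal library. CIPK5, a kinase that works with calcineurin B-like calcium sensors, was at or under 1.44 TPM in every library but those of OE drought, where it stood at 14.2, 28.3 and 10.1 TPM, an interaction of 2.97 (limma adjusted p = 0.00338). LHY (LOC_Os08g06110), a MYB factor of the circadian clock, rose from 4.11, 4.43 and 4.65 to 68.7, 66.1 and 60.4 TPM in WT and from 3.46 and 3.64 to 240.4, 229 and 147 TPM in OE, an interaction of 1.86 (SE 0.26, limma adjusted p = 0.00226). KAO, an oxidase of gibberellin synthesis, stood at 4.63, 2.99 and 3.60 TPM in WT drought and 10.4, 7.11 and 10.5 TPM in OE drought after 6.03, 5.16 and 4.80 and 1.99 and 1.41 TPM in WT and OE normal, an interaction of 2.35 (limma adjusted p = 0.00116). CPS1, which acts earlier in the same pathway, had an interaction of 2.71 (limma adjusted p = 0.00845), lost without OE normal replicate 2.

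Falls that were gained or larger in OE were the most numerous in the deposited TPM, at 831 and 950 loci. Under median-ratio scaling 276 and 309 of them kept their class, against 427 of 492 gained rises and 263 of 269 larger rises. Genes of nutrient transport and assimilation were among the named ones. Among 12 ammonium and nitrate genes 2 were lower and 0 higher, and among 11 phosphate genes 3 and 0. Among 12 potassium and sodium genes 2 were lower and 1 higher, and among 14 sugar genes 4 and 2. Of all loci, 11.3% were lower and 4.6% higher. In that order the counts were 1 and 1, 2 and 0, 2 and 1, and 1 and 2 under median-ratio scaling. Without WT drought replicate 3 they were 4 and 1, 4 and 1, 5 and 2, and 5 and 3. GLN1;2 (LOC_Os03g12290), a cytosolic glutamine synthetase of ammonium assimilation, stood at 2604, 2496 and 2521 TPM in WT normal, 1469, 1522 and 760.2 in WT drought, 1609 and 1699 in OE normal and 119, 29.3 and 88.7 in OE drought. All OE drought libraries were far below every other library, and the interaction was -3.50 (SE 0.67, limma adjusted p = 0.00898), lost without OE normal replicate 2. PHO1-2 (LOC_Os02g56510), which loads phosphate into the xylem, stood at 149, 154 and 151 TPM in WT normal, 165, 113 and 86.8 in WT drought, 133 and 129 in OE normal and 20.6, 10.9 and 23.1 in OE drought. Its drought groups did not overlap. Its interaction was -2.48 (SE 0.41, limma adjusted p = 0.00501). SWEET14 (LOC_Os11g31190), a sugar exporter, was about level in WT, at 29.0, 30.6 and 29.0 TPM in normal and 31.7, 25.1 and 24.3 in drought, while in OE it went from 52.5 and 55.1 to 8.26, 4.60 and 10.6 TPM, an interaction of -2.57 (SE 0.35, limma adjusted p = 0.00188). HAK1, a high-affinity potassium transporter, had 179, 174 and 81.7 TPM in WT drought and 39.5, 32.7 and 41.6 in OE drought, an interaction of -1.78 (limma adjusted p = 0.0148), lost without either OE normal library. The silicon transporter genes LSI1 and LSI2, used above as root markers, fell in both genotypes and further in OE. LSI2 went from 725, 706 and 707 to 224, 264 and 159 TPM in WT and from 702 and 778 to 71.8, 15.5 and 36.0 TPM in OE, an interaction of -2.63 (limma adjusted p = 0.0227), lost without any of the 5 normal libraries or WT drought replicate 2. LSI1 had an interaction of -1.45 (limma adjusted p = 0.0276) that did not pass under median-ratio scaling (-1.19, limma adjusted p = 0.075) or without any of the 5 normal libraries.

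Lists of cell wall genes differed in direction. Of 13 loci of cellulose and related synthesis, 5 had a lower response in OE, 0 a higher one and 8 did not pass, with a list median of -1.43 against -0.226 for all loci, of which 11.3% were called lower. Every member had an interaction below the median of all loci, from -1.96 to -0.73. The count of lower members was 2 under median-ratio scaling and 11 without WT drought replicate 3. CESA5 (LOC_Os03g62090) stood at 90.2, 90.3 and 90.4 TPM in WT normal, 120.2, 124 and 62.0 in WT drought, 109 and 106 in OE normal and 25.1, 31.6 and 31.0 in OE drought. WT drought replicates 1 and 2 were above and replicate 3 below the WT normal libraries, the OE drought libraries were below all others, and the interaction was -1.96 (SE 0.35, limma adjusted p = 0.00635). CESA8 had an interaction of -1.65 and CESA1 one of -1.55, both lost without any of the 5 normal libraries, and that of CESA1 also under median-ratio scaling. CESA6 was a lost rise of -1.76 (limma adjusted p = 0.0206), with 444, 556 and 254 TPM in WT drought and 114, 168 and 202 TPM in OE drought, and its call was lost without any of the 5 normal libraries and under median-ratio scaling. Of 8 lignin synthesis genes, 5 were lower in OE, 0 higher and 3 did not pass, where 11.3% of all loci were called lower, with 2 lower under median-ratio scaling. COMT1 (LOC_Os08g06100), a methyltransferase of lignin monomer synthesis, stood at 1438, 1403 and 1457 TPM in WT normal, 941, 849.7 and 899.6 in WT drought, 1564 and 1789 in OE normal and 379, 336 and 340.0 in OE drought, with no overlap between groups after drought and an interaction of -1.57 (SE 0.17, limma adjusted p = 0.000637). Its class changed from larger to gained under median-ratio scaling. Of 15 expansins, which loosen the cell wall, 2 were higher in OE, 0 lower and 13 did not pass, where 4.6% of all loci were called higher. The list median was 0.72, and without WT drought replicate 3 there were 5 higher and 1 lower. EXPA3 and EXPA18, the 2 called, were falls of WT lost in OE, with interactions of 1.61 (limma adjusted p = 0.0466) and 2.54 (limma adjusted p = 0.0429). EXPA18 stood at 7.29, 4.77 and 9.99 TPM in WT drought and 9.64, 22.33 and 56.8 TPM in OE drought, groups that overlapped. Both calls were lost without any of the 5 normal libraries, WT drought replicate 1, WT drought replicate 2 or OE drought replicate 2.

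An ethylene receptor, an ascorbate peroxidase and a metallothionein were among the other gained or larger falls. ETR2 (LOC_Os04g08740), an ethylene receptor, stood at 45.6, 41.3 and 42.2 TPM in WT normal, 49.2, 49.2 and 57.4 in WT drought, 39.9 and 41.9 in OE normal and 15.8, 12.7 and 16.6 in OE drought. The 3 OE drought libraries were the lowest, and the interaction was -1.66 (SE 0.19, limma adjusted p = 0.000766); under median-ratio scaling the WT rise was called as well and the gene counted as reversed. Of 9 ethylene genes, 3 were lower, all of them receptors (ETR2, ETR3 and ERS1), 0 were higher and 6 did not pass, where 11.3% of all loci were called lower. Without WT drought replicate 3 there were 5 lower and 1 higher. ETR3 had an interaction of -1.17, lost without WT normal replicate 1 or 3 or either OE normal library, and ERS1 one of -0.77, lost without either OE normal library. APX7 (LOC_Os04g35520), an ascorbate peroxidase that removes hydrogen peroxide, stood at 336, 336 and 273 TPM in WT drought and 143, 138 and 136 TPM in OE drought, an interaction of -1.25 (SE 0.16, limma adjusted p = 0.00154). Under median-ratio scaling APX7 counted as reversed too. MT2B, a metallothionein, fell from 415, 439.8 and 407 to 185, 154 and 189 TPM in WT and from 307 and 302 to 35.2, 19.9 and 32.9 TPM in OE, an interaction of -2.11 (limma adjusted p = 0.00191). Among 21 cell cycle genes, 2 were lower, 0 higher and 19 did not pass, a share of lower calls near that of all loci (11.3%). Under median-ratio scaling 1 was lower. The list median was -0.61, and after drought the summed TPM of the list was 424.5 to 470.2 in the WT libraries and 280.3 to 430.2 in the OE ones.

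Rises lost or reduced in OE included DREB factors, diterpenoid phytoalexin genes and jasmonate repressors. DREB1A (LOC_Os09g35030), a factor that binds the dehydration-responsive element, stood at 8.09, 12.6 and 7.51 TPM in WT normal, 259, 156 and 108 in WT drought, 24.3 and 25.03 in OE normal and 28.1, 33.2 and 24.4 in OE drought. It rose strongly in WT, and in OE its level in drought overlapped that in normal conditions, an interaction of -3.82 (SE 0.44, limma adjusted p = 0.000814). OE normal roots held more of it than WT normal roots in every library. DREB1E had an interaction of -4.60 (limma adjusted p = 0.0357), with 98.9, 49.7 and 4.44 TPM in WT drought and 5.57, 2.92 and 2.93 TPM in OE drought. The call of DREB1E was lost under median-ratio scaling (-4.32, limma adjusted p = 0.0605) and in each fit that left out a normal library, OE drought replicate 2, WT drought replicate 1 or WT drought replicate 2. DREB1B, a neighbour of DREB1A, did not pass at -3.98 (limma adjusted p = 0.165). Its WT drought libraries stood at 467, 189 and 5.29 TPM, so that replicate 3 lay at the level of the WT normal libraries (4.23, 9.26 and 4.52 TPM). Of 7 DREB and CBF factors, 2 were lower, 0 higher and 5 did not pass, where 11.3% of all loci were called lower. There was 1 lower under median-ratio scaling, and there were 5 lower and 1 higher without WT drought replicate 3.

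Of 13 diterpenoid phytoalexin genes, 6 were lower in OE, 0 higher and 7 did not pass, with a list median of -1.27, where 11.3% of all loci were called lower. Under median-ratio scaling 4 were lower, where 5.24% of all loci were. CYP99A3 (LOC_Os04g09920), a cytochrome P450 of momilactone synthesis, stood at 3.79, 3.25 and 3.76 TPM in WT normal, 51.5, 23.7 and 22.9 in WT drought, 3.84 and 4.08 in OE normal and 4.04, 2.65 and 3.16 in OE drought. The OE drought libraries were no higher than the OE normal ones except for replicate 1, which lay between them, and the interaction was -2.998 (SE 0.41, limma adjusted p = 0.00208). CPS4 and MAS, which act at the start and the end of the same pathway and lie in the same cluster on chromosome 4, rose in both genotypes and less in OE. CPS4 reached 64.8, 38.7 and 43.8 TPM in WT drought and 22, 13.4 and 13.8 in OE drought, an interaction of -1.88 (limma adjusted p = 0.00768). MAS reached 36.4, 27.4 and 26.1 TPM in WT drought and 9.95, 6.3 and 8.76 in OE drought, an interaction of -1.80 (limma adjusted p = 0.00356). Of 25 genes of jasmonate synthesis and signalling, 6 were lower, 2 higher and 17 did not pass, where 11.3% and 4.6% of all loci were called lower and higher. There were 1 lower and 2 higher under median-ratio scaling, and 14 lower and 4 higher without WT drought replicate 3. TIFY10B (LOC_Os07g42370), a JAZ repressor, stood at 122, 129 and 121 TPM in WT normal, 794, 932 and 871 in WT drought, 178 and 191 in OE normal and 418, 487 and 399 in OE drought. Every OE library was above the WT libraries in normal conditions and below them after drought, an interaction of -1.56 (SE 0.17, limma adjusted p = 0.00068). The 2 higher genes were the lipoxygenases CM-LOX1, named after its values were seen, and CM-LOX2, the latter at 21.97, 17.1 and 33.7 TPM in WT drought and 97.1, 72.2 and 63.8 in OE drought, an interaction of 1.58 (limma adjusted p = 0.0181), lost without either OE normal library. The call of CM-LOX1 was not kept in all 11 fits that left out 1 library, and in this list only that of TIFY10B was.

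Among water channels of the plasma and vacuolar membranes, 4 of 17 were lower in OE, 0 higher and 13 did not pass, where 11.3% of all loci were called lower. There were 2 lower under median-ratio scaling, and 7 lower and 1 higher without WT drought replicate 3. PIP1-3 (LOC_Os02g57720), of a family whose close copies may share reads, stood at 248, 252 and 261 TPM in WT normal, 1484, 1420 and 946 in WT drought, 188 and 190.3 in OE normal and 323, 182 and 265 in OE drought. Its rise in WT was not matched in OE, and the drought groups did not overlap, with an interaction of -1.91 (SE 0.33, limma adjusted p = 0.00598). CDPK7, a calcium-dependent protein kinase, rose to 227, 255 and 301 TPM in WT drought and 188, 178 and 187 in OE drought from 78.6, 91.5 and 83.1 and 129 and 128 TPM, an interaction of -1.098 (limma adjusted p = 0.00478). The factor genes WRKY71 (-2.27) and MYB2 (-1.89) were smaller rises whose drought libraries overlapped between genotypes. Both calls were absent under median-ratio scaling, and that of WRKY71 without WT normal replicate 1 or 3, either OE normal library or WT drought replicate 2. That of MYB2 was absent without any of the 5 normal libraries, WT drought replicate 2 or OE drought replicate 2.

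Falls lost or reduced in OE included genes of iron and zinc uptake. Of 17 such genes, 6 had a higher response in OE, 2 a lower one and 9 did not pass, where 4.6% of all loci were called higher and 11.3% lower, so that the lower calls were at the share of all loci. Under median-ratio scaling 7 were higher and 1 lower, and without WT drought replicate 3 there were 8 higher and 4 lower. In YSL2, NRAMP1, IRT2 and NAS1 the genotype difference was larger in normal conditions than after drought. NRAMP1 (LOC_Os07g15460), a metal transporter, stood at 18.04, 13.8 and 16.6 TPM in WT normal, 2.17, 1.31 and 1.49 in WT drought, 3.69 and 2.99 in OE normal and 1.29, 1.38 and 1.299 in OE drought. The drought groups overlapped, and the interaction was 1.80 (SE 0.24, limma adjusted p = 0.0019). IRT2 (LOC_Os03g46454), an iron transporter, stood at 6.33, 4.67 and 5.96 TPM in WT normal and 0.769 and 1.78 in OE normal and was listed at 0 in all 6 drought libraries, so that its interaction of 1.58 (limma adjusted p = 0.00407) equals the normal difference with its sign turned. NAS1, a nicotianamine synthase with a close tandem copy, stood at 45.2, 30.1 and 44.3 TPM in WT normal, 0.168, 1.14 and 6.60 in WT drought, 2.15 and 2.46 in OE normal and 4.92, 0.488 and 1.84 in OE drought. Its interaction of 3.74 (limma adjusted p = 0.0291) was lost without any of the 5 normal libraries or WT drought replicate 2. NAS3 of the same family went the other way, from 93.2, 96.4 and 94.8 to 38.3, 30.7 and 21.5 TPM in WT and from 115 and 118 to 11.96, 7.19 and 9.48 TPM in OE, an interaction of -1.85 (SE 0.32, limma adjusted p = 0.0056).

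ADH1 and ADH2 belong to a list of genes of low-oxygen metabolism. Of 8 tested, 5 had a higher response in OE, 0 a lower one and 3 did not pass, with a list median of 1.94, where 4.6% of all loci were called higher, and 6 were higher under median-ratio scaling. HB2 (LOC_Os03g12510), a non-symbiotic haemoglobin, stood at 861, 892 and 826 TPM in WT normal, 54.1, 57.8 and 26.8 in WT drought, 475 and 529 in OE normal and 126, 128 and 119.6 in OE drought. It fell in both genotypes and less in OE, with no overlap between the drought groups and an interaction of 2.26 (SE 0.36, limma adjusted p = 0.00404). RAMY3D, an alpha-amylase, reached 2.29, 10.1 and 22.4 TPM in WT drought and 58.5, 148 and 76.7 in OE drought, an interaction of 3.25 (limma adjusted p = 0.0357). PDC2, a pyruvate decarboxylase upstream of the alcohol dehydrogenases, had an interaction of 1.67 (limma adjusted p = 0.0397). The call of RAMY3D was lost without any of the 5 normal libraries, WT drought replicate 2 or OE drought replicate 2, and that of PDC2 without any of the 5 normal libraries or WT drought replicate 1 or 2. PRR95 (LOC_Os09g36220), a pseudo-response regulator of the clock, fell from 58.9, 53.2 and 55.4 to 7.36, 4.48 and 17.6 TPM in WT, while in OE it stood at 40.4 and 37.9 TPM in normal and 72.4, 55.3 and 26.2 in drought, an interaction of 2.85 (SE 0.65, limma adjusted p = 0.0184), lost without either OE normal library.

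**Figure D5:**
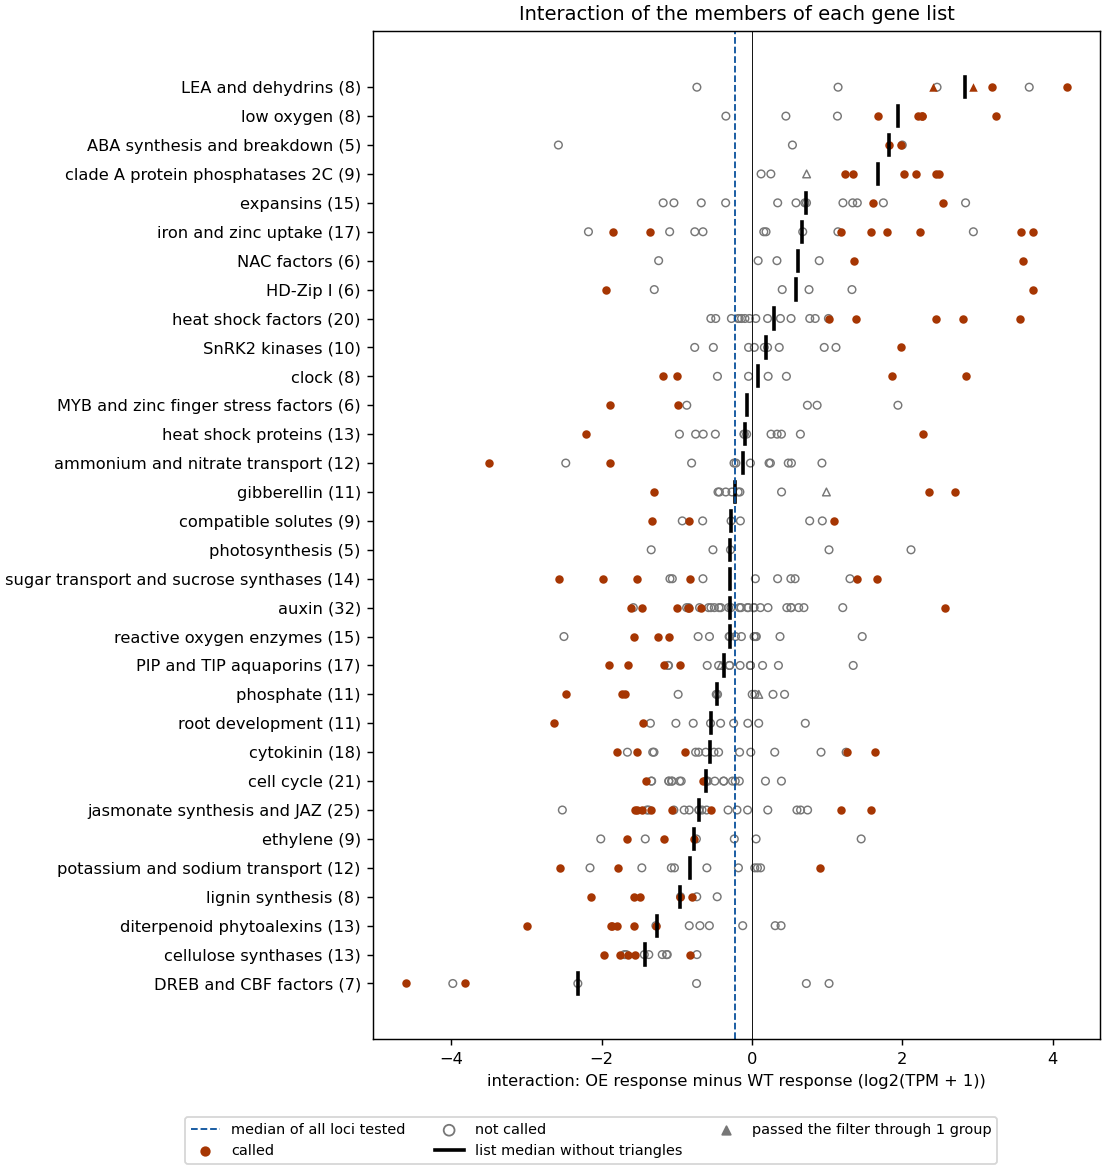
Interaction (OE response minus WT response, log2(TPM + 1)) of each tested member of the gene lists with at least 5 tested members, with the number of members after each name. Filled points were called, open points were not, triangles passed the filter on TPM through 1 group alone, short black bars are list medians without the triangles, and the dashed line is the median of all 23699 loci (-0.226). The median of the DREB and CBF list is -2.32, and the members of the cellulose list all lie left of the dashed line.

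Over all lists, 450 genes with an accepted name were tested and 130 were called, where 15.9% of all loci were. A list of 45 other stress genes held 2 higher and 7 lower calls, and 36 members did not pass, shares near the 4.6% and 11.3% of all loci. It held 4 higher and 3 lower under median-ratio scaling, and 7 higher and 15 lower without WT drought replicate 3. Lists with no called member among at least 3 tested included the photosynthesis genes, of which 5 were tested, with a median interaction of -0.29 and 1 higher call without WT drought replicate 3. Loci that passed the filter through 1 group alone numbered 677, and 312 of them were called, which the filter favours, since such loci are near 0 elsewhere.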

How the data were processed

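Per the labels, total RNA of roots was extracted with TRIzol and libraries were sequenced by RNA-seq; the 18 ATAC-seq samples of the series were not analysed here. TPM values deposited by the authors (23699 loci tested, 11 libraries) were the measure, FPKM values deposited by the authors an alternative, and the coverage signal deposited by the authors served only for the ratio that gives implied depth. Among the tools in the submitters' processing notes are STAR 1.5.2, SAMtools 1.9, StringTie 1.3.6, FastQC 0.11.8, fastp and DESeq2, listed with no role. Build, annotation and strandedness: not given in the sources used here, so overlapping or antisense genes cannot be told apart. TPM is relative: a rise of some transcripts lowers all others. Without read counts, neither a count model nor a counting interval could be used; an exact 0 is described as listed at 0.

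A group-means model on log2(TPM + 1) was fitted (limma 3.58.1, R 4.3.3), with a variance prior that follows the mean (residual degrees of freedom 7, prior 2.92), two-sided, Benjamini-Hochberg adjusted over all loci, threshold 0.05. Fold changes on this scale understate those of weakly expressed loci. Replicates are called biological without further detail, so the spread behind each p-value is that between these libraries, which may be technical. Tested on simulated data (23699 genes, spread as measured), the interaction fit recovered 17% of 100 genes changed by log2 1 and 65% of 100 changed by log2 2. It made 10 false calls among 23499 unchanged genes, a share of its calls above the threshold of 0.05. Far fewer genes were changed there than were called in the data, so these rates may not carry over. Tables used pandas 2.3.3 and numpy 2.4.6, plots matplotlib 3.10.9, all under Python 3.11.15.

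The interaction, the gene lists and the rules were chosen with earlier results of these data known, and the list of other stress genes was added later. Loci were named from knowledge and accepted where the reference table (assembly ASM3414082v1) held the symbol at a like position and length: 483 of 742, while 0.2992% of 37100 random draws were accepted. Named genes were OsNMCP1, NMCP1A and SWI3C1, up to 6 of at least 5 TPM with the largest interaction per class and sign, up to 4 per list by lowest adjusted p, and unnamed reversed loci; the text gives part of them, and genes outside the rule that make up a count of 5 or fewer were chosen after their values were seen. Promoter sequences were not used here. Alternatives were another pseudocount (0.1 or 5), no filter or 5 TPM, median-ratio scaling, FPKM, array weights per group, no trend, a replicate block and each library left out.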

Additional observations from a re-analysis of the deposited data

Results flagged for a closer look

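A difference between genotypes in the same contrast, drought against normal, was tested directly for every locus, and 3778 loci passed (limma adjusted p under 0.05). Among named genes of at least 5 TPM, 9 had called responses of opposite sign. The OE response minus the WT response was 3.60 for NAC5, 3.58 for YSL2, 2.26 for ADH1 and 2.21 for ADH2, which fell in WT and rose in OE. It was -2.56 for HAK16, -1.80 for RR9, -1.65 for TIP2-1, -1.49 for CAD2 and -1.47 for IAA16, which rose in WT and fell in OE. Under median-ratio scaling ADH1 became a gained rise, HAK16, RR9 and TIP2-1 became lost rises, and IAA16 was not called. With 2 or 3 libraries in a group, single outlying libraries were not tested.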

How the results depend on the processing

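None of 114 named calls changed sign under the alternatives run. The balance of all calls turned under median-ratio scaling, from 1091 higher and 2687 lower to 1453 and 1241. It gave 757 larger and 189 smaller responses and 330 calls with the larger difference in normal conditions, against 1219, 364 and 606, and ended 30 named calls. A pseudocount of 5 gave 1450 calls of at least 2-fold against 2701. Deviations of same-numbered libraries correlated at -0.132 to 0.059, and those of other pairs across groups at -0.271 to 0.252. With 2 or 3 libraries in a group these values cannot show whether equal numbers share a culture or day. A replicate block left 2685 calls, 2575 of them shared, with 387 lost responses against 590, and ended 20 named calls. Other fits moved these counts by less than 1.5 times; array weights per group gave 4880 calls. Leaving out 1 library gave 1155 to 7442 calls, 432 to 2565 higher, 723 to 4877 lower and 1067 to 4671 at least 2-fold. The classes ranged over 138 to 678 reversed, 440 to 2312 gained, 165 to 1151 lost, 312 to 2799 larger and 76 to 1045 smaller, with 207 to 922 larger in normal conditions and 48 to 230 list members called against 130. Most named calls were lost without an OE normal library, 63 and 65 of 114, where the lone sample is assumed to vary like the other groups. The interaction rests on 2 OE normal libraries and on drought libraries of wide spread. At an unadjusted p under 0.05 there were 7632 loci. A missed call does not show that a response was alike, and the causes of these shifts were not tested.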

Other observations

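Growth hormone genes had calls in both directions. Of 18 cytokinin genes, 2 were higher in OE, 3 lower and 13 did not pass, where 4.6% of all loci were called higher and 11.3% lower. Under median-ratio scaling 2 were higher and 1 lower, and without WT drought replicate 3 there were 3 higher and 5 lower. CKX1, a cytokinin oxidase that degrades the hormone, was a gained rise, with 4.80, 3.94 and 5.41 TPM in WT normal, 3.45, 2.995 and 4.76 in WT drought, 2.47 and 3.07 in OE normal and 9.94, 7.20 and 8.91 in OE drought, an interaction of 1.64 (SE 0.28, limma adjusted p = 0.00555). LOG, an enzyme that activates cytokinin, rose in both genotypes to 116, 178 and 207 TPM in WT and 412, 369.8 and 366 TPM in OE, an interaction of 1.27 (limma adjusted p = 0.0333) that was lost without WT normal replicate 2 or 3, either OE normal library, or OE drought replicate 1 or 2. Of 32 auxin genes, 1 was higher, 6 lower and 25 did not pass, where 4.6% and 11.3% of all loci were called higher and lower. Under median-ratio scaling the auxin balance turned, with 3 higher and 2 lower, where 6.13% and 5.24% of all loci were. Without WT drought replicate 3 there were 3 higher and 11 lower. IAA9 (LOC_Os02g56120), an Aux/IAA repressor, stood at 5.98, 8.58 and 8.65 TPM in WT normal, 11.1, 15.5 and 17.1 in WT drought, 9.88 and 8.99 in OE normal and 103, 159.8 and 77.3 in OE drought, an interaction of 2.57 (SE 0.39, limma adjusted p = 0.00348). IAA20 went the other way, at 39.8, 43.1 and 54.6 TPM in WT drought and 22.9, 21.6 and 36.8 TPM in OE drought, an interaction of -1.61 (limma adjusted p = 0.00715).

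Among sugar genes, SUT1, a sucrose transporter, was a larger rise in OE, at 1.73, 1.22 and 3.59 TPM in WT drought and 12.9, 15.6 and 12.6 TPM in OE drought, an interaction of 1.66 (limma adjusted p = 0.0139), lost without either OE normal library. The cell wall invertase genes CIN1 and CIN2 diverged. CIN1 stood at 32.0, 30.0 and 52.5 TPM in WT drought and 112, 193 and 110.3 TPM in OE drought, an interaction of 1.40 (limma adjusted p = 0.0335). CIN2 stood at 31.0, 26.9 and 16.3 TPM in WT drought and 7.55, 3.03 and 11.8 TPM in OE drought, an interaction of -1.98 (limma adjusted p = 0.0372). Both calls were lost without any of the 5 normal libraries or WT drought replicate 1 or 2, and that of CIN2 also without OE drought replicate 1 and under median-ratio scaling. In the clock list, GI fell further in OE, with 239.6, 246 and 266 TPM in WT drought and 120.4, 106 and 89.6 TPM in OE drought, an interaction of -1.18 (SE 0.18, limma adjusted p = 0.00359), opposite in sign to those of LHY and PRR95.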
